A study of Mus musculus with 12 samples.

Results

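The genes described here make, bind, sense and degrade retinoic acid, the active form of vitamin A, in vascular smooth muscle cells cultured from mice. They are 9 of the 55487 genes of the deposited table, taken by symbol: Aldh1a1, Aldh1a2, Aldh1a3, Dhrs3, Cyp26b1, Crabp1, Crabp2, Rarb and Rarg. The members were chosen by their place in the pathway and selected on measured PDGF-BB responses, a low CPM of Cyp26b1 and a high CPM of Aldh1a3 under this growth factor, so the PDGF-BB response of all 9 is given as a description with no test. RNA was sequenced from 12 libraries in 4 groups of 3. These were cells labelled TIGAR knockout (KO) with PDGF-BB, labelled knockout untreated, wild-type (WT) with PDGF-BB and wild-type untreated. PDGF-BB was given at 40 µg/L for 6 h. All groups came from mice 4 to 6 weeks old, were grown in medium with fetal bovine serum and were used at passages 4 to 6. Strain, sex and the design of the knockout allele are not stated in the labels, and neither is a separate animal or culture for each library. The p-values therefore measure the spread between these libraries, which may be technical.

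Retinol from vitamin A is oxidised to retinaldehyde and then, by the ALDH1A enzymes, to retinoic acid. DHRS3 works against this flow by reducing retinaldehyde back to retinol, and CYP26 enzymes such as CYP26B1 oxidise retinoic acid to products that are cleared. Retinoic acid enters the nucleus in part with CRABP2 and binds receptors (RARs) that sit with RXR partners on paired hexamer motifs in DNA. In the vessel wall retinoic acid is known to restrain smooth muscle growth and to favour the contractile state.

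TIGAR, a fructose bisphosphatase that limits glycolysis, is the gene named in the knockout label, and its transcript was measured first as a check of the labels. Tigar had 14.6, 14.7 and 16.2 CPM (reads scaled to the same sum in every library) in labelled knockout cells with PDGF-BB and 10, 12.2 and 11.3 CPM in untreated labelled knockout cells. Wild-type cells had 11.5, 11.5 and 12.6 CPM with PDGF-BB and 6.99, 8.61 and 6.91 CPM untreated. Tigar was thus not lower in the libraries labelled knockout. It was higher there, by 0.33 on the log2 scale in treated cells (SE 0.108, limma-trend adjusted p = 0.0292) and by 0.52 in untreated cells (SE 0.108, limma-trend adjusted p = 0.00209). The genotype is therefore called by its label throughout, and the counts do not show which part of the gene the reads cover.

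Library totals lay between 14953807 and 21698488 reads. Replicate 1 of wild-type with PDGF-BB stood farthest from its group, with a distance (root mean square over genes, log2 scale) of 0.416, the others lying between 0.143 and 0.293. Of the smooth muscle markers, Acta2, the actin of smooth muscle, averaged 2578 and 2460 CPM in labelled knockout cells with and without PDGF-BB, and 1298 and 1582 CPM in wild-type cells with and without it. Myh11, the smooth muscle myosin heavy chain, averaged 53.0 and 79.0 CPM in the same labelled knockout groups, and 35.9 and 71.5 CPM in the wild-type ones. Tagln, another defining marker, was at 3.41 to 6.93 CPM in the group means, and 67.9% of its exon bases are overlapped by exons of the opposite strand. Of the 8 smooth muscle markers, 7 passed as higher in labelled knockout with PDGF-BB (median log2 difference 0.90) and 5 without it (0.49), and none as lower. The genotype labels also differed in markers of other cells. The summed level of 6 endothelial markers was 500.0 to 517.2 CPM in labelled knockout cells with PDGF-BB and 531.8 to 601.3 CPM untreated, against 62.7 to 67.5 CPM and 79.1 to 85.6 CPM in wild-type cells with and without PDGF-BB. All 6 passed the test as higher in labelled knockout in both treatments. The summed level of 6 macrophage markers was 29.2 to 33.2 and 30 to 35.9 CPM in labelled knockout cells with and without PDGF-BB, against 98.3 to 140.7 and 127.6 to 135.9 CPM in wild-type cells. Of these, 5 of 6 were lower in labelled knockout with PDGF-BB and 6 of 6 without it. The 7 fibroblast markers summed to 935.8 to 963.6 and 1331 to 1584 CPM in labelled knockout cells with and without PDGF-BB, against 302.7 to 314.5 and 387.0 to 415.7 CPM in wild-type cells. Most of that difference lay in Col14a1, which averaged 821.4 and 1257 CPM in labelled knockout and 136.2 and 210.4 CPM in wild-type with and without PDGF-BB. Of the 6 fibroblast markers that passed the filter, Col14a1 and Pi16 were higher in labelled knockout in both treatments, and the list's median log2 difference was -0.10 with PDGF-BB and -0.14 without it. Pdgfra was lower with PDGF-BB, at 35.7 CPM in labelled knockout and 68.3 CPM in wild-type (limma-trend adjusted p = 0.000318), while Dcn, Dpt and Ly6a did not pass. Mesothelial markers summed to at most 18.5 CPM in any library with Wt1 at 0 in all, and Schwann cell markers to at most 55.3 CPM with Sox10 at 0 in all. Of the Schwann cell markers S100b was lower in labelled knockout in both treatments, at 10.8 and 13.4 CPM against 41.1 and 42.1 CPM in wild-type with and without PDGF-BB. The mesothelial markers Upk1b, in both treatments, and Upk3b, without PDGF-BB, were lower in labelled knockout as well. Of 4 adipocyte markers only Fabp4 passed the filter, and it was higher in labelled knockout in both treatments. Adipoq, Plin1 and Cfd averaged at most 0.0987 CPM in any group. The part of these other cells in the results below was not tested, and in bulk RNA fewer cells of a type and less RNA per cell cannot be told apart.

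Cyp26b1 (ENSMUSG00000063415, GRCm38.p6 chr6:84571414-84593908, minus strand), the enzyme that breaks retinoic acid down, was the most abundant member in untreated wild-type cells per kb of GENCODE exon, at 153 CPM per kb. It had 205.6, 223.0 and 200.9 CPM in labelled knockout cells with PDGF-BB, against 625.2, 672.8 and 640.5 CPM in untreated ones. In wild-type cells it had 108.8, 128.7 and 128.4 CPM with PDGF-BB, against 811.7, 834.8 and 816.9 CPM untreated. The 4 groups did not overlap, and the levels ran from wild-type with PDGF-BB, the lowest, through labelled knockout with PDGF-BB and labelled knockout untreated to wild-type untreated. The mean was 3.08-fold lower with PDGF-BB in labelled knockout cells and 6.73-fold lower in wild-type cells. On the log2(CPM + 1) scale the PDGF-BB differences were -1.62 and -2.74 (SE 0.0739 each). With 3 replicates a group the SD was 11.7, 24.3, 11.4 and 12.1 CPM in labelled knockout with PDGF-BB, labelled knockout untreated, wild-type with PDGF-BB and wild-type untreated.

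The 3 enzymes that make retinoic acid differed from each other under PDGF-BB. Aldh1a1 (ENSMUSG00000053279, chr19:20492715-20643465, plus strand) had 214.3, 212.4 and 216.8 CPM in labelled knockout cells with PDGF-BB, against 251.5, 384.4 and 365.6 CPM untreated. In wild-type cells it had 409.3, 334.0 and 327.3 CPM with PDGF-BB, against 667.9, 705.6 and 679.2 CPM untreated. It was lower with PDGF-BB under both labels, 1.56-fold in labelled knockout and 1.92-fold in wild-type, while the untreated labelled knockout libraries overlapped the wild-type libraries with PDGF-BB. The neighbouring gene Aldh1a7 is a near-identical copy on the same chromosome, and how the counting split reads shared by the pair is not stated.

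Aldh1a3 (ENSMUSG00000015134, chr7:66390890-66427517, minus strand) was higher with PDGF-BB under both labels. It had 43.6, 38.4 and 48.6 CPM in labelled knockout cells with PDGF-BB, against 6.67, 7.56 and 8.17 CPM untreated. Wild-type cells had 23.6, 20.1 and 17.6 CPM with PDGF-BB, against 2.96, 5.75 and 6.2 CPM untreated. The libraries of the 4 groups did not overlap, with the order running from wild-type untreated, the lowest, to labelled knockout with PDGF-BB. The ratio of mean CPM was 5.83 in labelled knockout and 4.11 in wild-type, and the log2(CPM + 1) differences were 2.39 and 1.88 (SE 0.191 each).

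Aldh1a2 (ENSMUSG00000013584, chr9:71215789-71296243, plus strand), the main enzyme of retinoic acid synthesis in the mouse embryo, showed little difference with PDGF-BB. It had 18.3, 20.6 and 19.2 CPM in labelled knockout cells with PDGF-BB, against 21.6, 21.5 and 20.3 CPM untreated. Wild-type cells had 13.5, 11.7 and 10.4 CPM with PDGF-BB, against 9.01, 8.91 and 11 CPM untreated. Treated and untreated libraries overlapped within each label, and the log2(CPM + 1) differences were -0.12 and 0.27 (SE 0.108 each) in labelled knockout and in wild-type.

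Dhrs3 (ENSMUSG00000066026, chr4:144892827-144928209, plus strand), which returns retinaldehyde to retinol and is itself a known retinoic acid target, was lower with PDGF-BB. It had 25.1, 26.5 and 24.1 CPM in labelled knockout cells with PDGF-BB, against 48.4, 48.1 and 47.2 CPM untreated. Wild-type cells had 55.4, 38.1 and 43.3 CPM with PDGF-BB, against 101.0, 110.5 and 109.8 CPM untreated. The difference was 1.90-fold in labelled knockout and 2.35-fold in wild-type, and treated and untreated libraries did not overlap under either label. Untreated labelled knockout and wild-type with PDGF-BB, the middle groups, overlapped.

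Crabp2 (ENSMUSG00000004885, chr3:87948666-87953376, plus strand), the binding protein that hands retinoic acid to its receptors, was near the floor of the assay without PDGF-BB. Its untreated libraries held 12 reads in all in labelled knockout cells and 14 in wild-type cells. It had 4.24, 4.77 and 4.50 CPM in labelled knockout cells with PDGF-BB, against 0.327, 0.401 and 0.0556 CPM untreated. Wild-type cells had 12.1, 8.77 and 6.13 CPM with PDGF-BB, against 0.252, 0.255 and 0.298 CPM untreated. The ratio of mean CPM was 17.2 in labelled knockout and 33.6 in wild-type. On the log2(CPM + 1) scale the differences were 2.13 and 2.94 (SE 0.188 each), and with edgeR on the reads they were 4.19 and 5.11. The gene passed the filter on low values (at least 1 CPM in at least 3 libraries) only through its PDGF-BB libraries.

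Rarg (ENSMUSG00000001288, chr15:102234938-102257517, minus strand), the gamma receptor, had 88.0, 90.6 and 90.6 CPM in labelled knockout cells with PDGF-BB, against 113.1, 100 and 106.5 CPM untreated. Wild-type cells had 137.2, 141.3 and 134.7 CPM with PDGF-BB, against 141.0, 142.8 and 130.1 CPM untreated. The wild-type groups overlapped, while in labelled knockout cells the treated libraries were all below the untreated ones, by 1.19-fold in the mean. The sign in wild-type depended on the scaling: the log2 difference was -0.00 on CPM, 0.10 with TMM scaling and -0.07 after quantile normalization.

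The remaining pair was barely detected and did not pass the filter. Rarb (ENSMUSG00000017491, chr14:16430839-16819156, minus strand), the beta receptor, had 0, 1 and 2 reads in labelled knockout cells with PDGF-BB and 1, 1 and 1 untreated. It had 1, 0 and 2 reads in wild-type cells with PDGF-BB and 6, 2 and 2 untreated. Crabp1 (ENSMUSG00000032291, chr9:54764748-54773110, plus strand), another cytoplasmic binding protein, had 0, 1 and 3 reads in labelled knockout cells with PDGF-BB and 2, 0 and 3 untreated. It had 2, 0 and 2 reads in wild-type cells with PDGF-BB and 10, 0 and 5 untreated. The limit that a count of 0 allows, 3 reads, equals 0.138 to 0.201 CPM over these libraries, and differences between groups were not detectable at this depth. This limit covers counting error only. Exons of the opposite strand, of Top2b and Gm48162, cover 38.4% of the Rarb exon bases. The strand setting of the counting is not stated, so how reads in that overlap were assigned or dropped is not known.

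**Figure D1:**
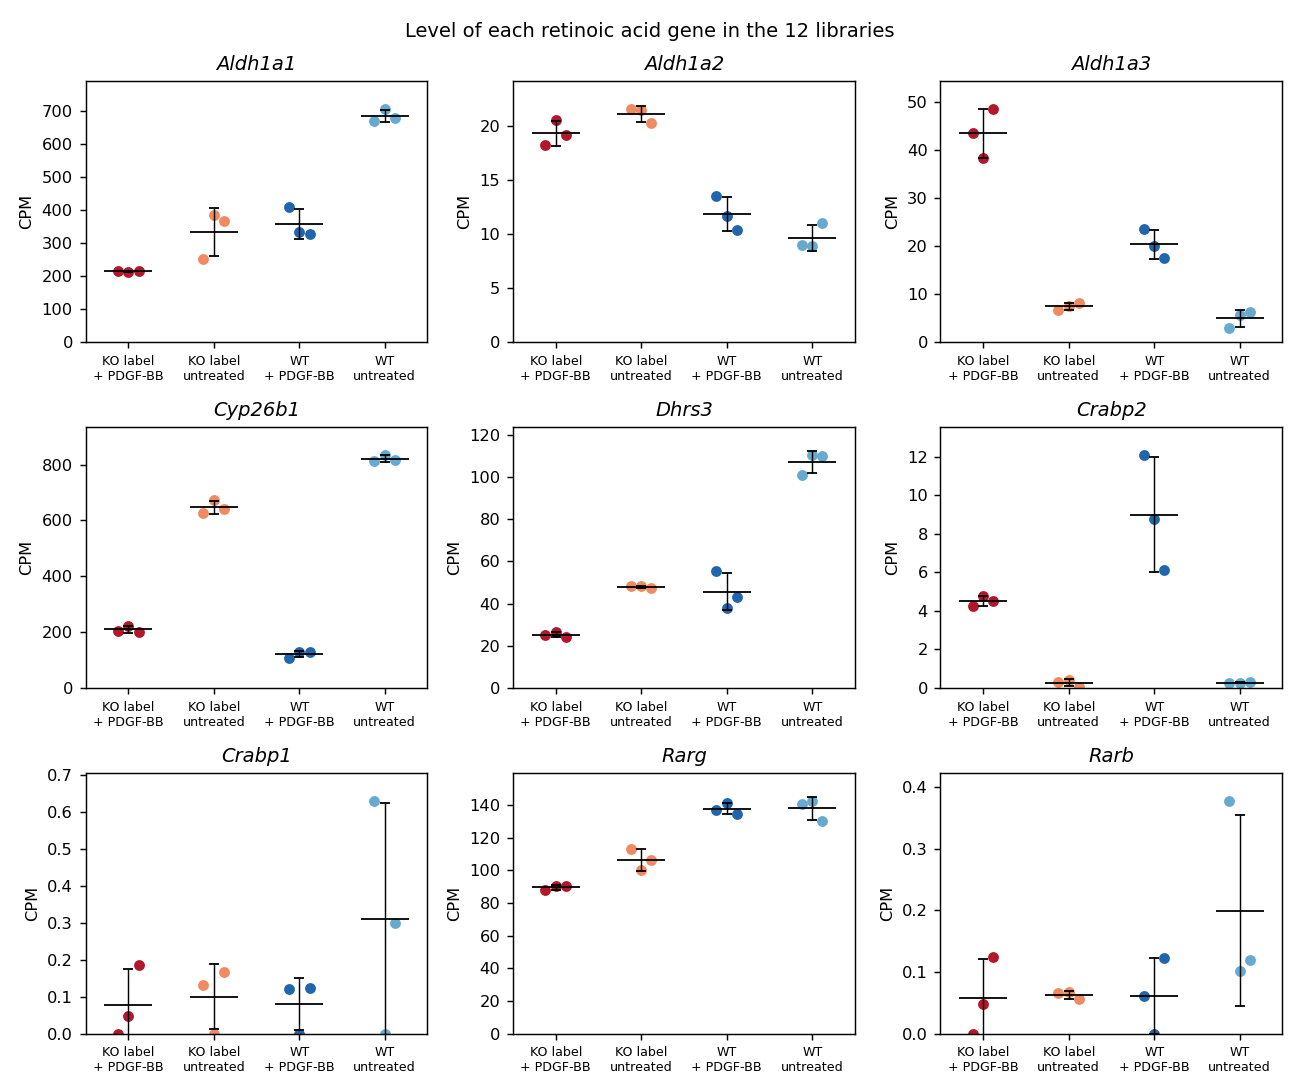
Each panel shows 1 of the 9 genes, with CPM per library on a linear axis (points), the group mean (horizontal line) and ± SD over 3 libraries (whisker) for labelled knockout with PDGF-BB, labelled knockout untreated, wild-type with PDGF-BB and wild-type untreated. Cyp26b1 was lowest in wild-type with PDGF-BB (108.8 to 128.7 CPM), Aldh1a3 highest in labelled knockout with PDGF-BB (38.4 to 48.6 CPM), and Rarb and Crabp1 stayed at 10 reads or fewer in every library.

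Of the 7 members kept by the filter, treated and untreated libraries did not overlap for 6 in labelled knockout cells and for 5 in wild-type cells, where this held for 63.2% and 62.3% of the 14202 genes kept. Nothing is read from these counts, since the members were picked with this contrast in view. Ordered by CPM per kb of exon, wild-type untreated cells had Cyp26b1 (153), Aldh1a1 (139), Dhrs3 (36.6), Rarg (32.4), Aldh1a2 (4.26) and Aldh1a3 (1.08). In labelled knockout cells with PDGF-BB the order was Aldh1a1 (43.4), Cyp26b1 (39.2), Rarg (21.1), Aldh1a3 (9.43), Dhrs3 (8.62), Aldh1a2 (8.55) and Crabp2 (3.41). The order depends on the exon length used. With the lengths listed in the deposited table, Aldh1a1 (290) was above Cyp26b1 (197) and Rarg (46.7) above Dhrs3 (45.8 CPM per kb) in untreated wild-type cells.

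The promoter sequences in the RefSeq table for GRCm38.p6 were searched because Cyp26b1, Dhrs3 and Aldh1a1 were lower together with PDGF-BB. Windows of 300 bases, from 250 before to 50 after the start, were found for 7 of the 9 members (11 windows), and those of Aldh1a3 and Crabp2 were not used here. The retinoic acid receptor motif was searched on both strands as a pair of hexamers in the same orientation, each A or G, then G, then G or T, then TCA, spaced by 1, 2 or 5 bases (DR1, DR2 and DR5). The AP-1 motif TGANTCA, bound by the FOS and JUN proteins that growth factors induce, was searched too. A DR5 pair stood in the Rarb window, where it begins 53 bases before the start, at the place of the textbook retinoic acid response element of this receptor. It is shown with the paired hexamers in capitals, as chr14:16575506-16575535 on the minus strand.
Rarb: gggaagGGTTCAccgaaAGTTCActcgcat
DR5 pairs were in 0.0974% of the 32851 windows in the table, DR1 in 0.222% and DR2 in 0.268%, and no other member window held a pair of these spacings. The AP-1 motif was in 7.81% of all windows and, among the members, in 1 Aldh1a1 window alone, 57 bases before its start. Another Aldh1a1 window, at chr19:20601718-20602017, held no match to either motif. The bases upstream of the Aldh1a1 start with the match (chr19:20492333-20492582, plus strand, motif in capitals) are given 5′ to 3′. Those upstream of 1 start each of Cyp26b1 (chr6:84593909-84594060, minus strand) and Dhrs3 (chr4:144892577-144892826, plus strand) follow. The Cyp26b1 and Dhrs3 stretches hold no match to either motif.
Aldh1a1: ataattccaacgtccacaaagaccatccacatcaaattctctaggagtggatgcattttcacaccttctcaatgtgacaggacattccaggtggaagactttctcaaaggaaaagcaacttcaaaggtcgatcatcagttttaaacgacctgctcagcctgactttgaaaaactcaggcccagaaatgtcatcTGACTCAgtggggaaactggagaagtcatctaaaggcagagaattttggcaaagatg
Cyp26b1: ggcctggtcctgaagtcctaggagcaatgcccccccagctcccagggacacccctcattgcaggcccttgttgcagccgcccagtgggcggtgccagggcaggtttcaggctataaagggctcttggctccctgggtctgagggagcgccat
Dhrs3: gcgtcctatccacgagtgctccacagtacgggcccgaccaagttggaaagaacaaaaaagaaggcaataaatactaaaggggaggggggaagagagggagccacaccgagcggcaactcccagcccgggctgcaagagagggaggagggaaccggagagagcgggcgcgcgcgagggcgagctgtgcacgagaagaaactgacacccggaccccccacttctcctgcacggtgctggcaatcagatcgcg
A match is a description of the letters, not of binding. The Rarb element lies in a gene with at most 6 reads in any library. A part of these motifs in the PDGF-BB differences was not tested.

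Labelled knockout and wild-type cells differed in nearly all measured members. With PDGF-BB all 7 kept by the filter passed the test (limma-trend, Benjamini-Hochberg adjusted p under 0.05), Cyp26b1, Aldh1a2 and Aldh1a3 as higher and Aldh1a1, Dhrs3, Rarg and Crabp2 as lower in labelled knockout. Of all genes kept 37.2% passed, 10.6% as higher and 26.6% as lower. Without PDGF-BB 6 of the 7 passed, Aldh1a2 and Aldh1a3 as higher and Aldh1a1, Dhrs3, Cyp26b1 and Rarg as lower, against 34.0% of all genes (9.15% higher, 24.8% lower). These contrasts use the same libraries as the PDGF-BB contrasts from which the members were picked. Crabp2 was kept by the filter only through its PDGF-BB libraries. The counts of members called are therefore given as a description only, and so are the p-values of Cyp26b1, Aldh1a3 and Crabp2 in these contrasts. The split of calls over all genes depended on scaling. On CPM 28.5% of the calls were higher with PDGF-BB and 27.0% without it, and with TMM scaling 56.4% and 53.5%. The median over all genes was -0.14 with PDGF-BB and -0.13 without it on CPM, and -0.011 and 0.017 with TMM scaling. Relative to these CPM medians the member differences with PDGF-BB were 1.20 for Aldh1a3, 0.92 for Cyp26b1, 0.81 for Aldh1a2, -0.47 for Rarg, -0.58 for Aldh1a1, -0.67 for Dhrs3 and -0.68 for Crabp2. Without PDGF-BB they were 1.19 for Aldh1a2, 0.68 for Aldh1a3, -0.22 for Cyp26b1, -0.24 for Rarg, -0.93 for Aldh1a1 and -1.01 for Dhrs3.

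Among the synthesis enzymes, Aldh1a1 with PDGF-BB averaged 214.5 ± 2.2 CPM in labelled knockout and 356.8 ± 45.5 CPM in wild-type (SD, n = 3 each), a log2 difference of -0.72 (SE 0.131, limma-trend adjusted p = 0.000901). Without PDGF-BB it averaged 333.8 ± 71.9 CPM in labelled knockout and 684.2 ± 19.3 CPM in wild-type (log2 -1.06, SE 0.131, limma-trend adjusted p = 4e-05). Aldh1a2 went the other way. It averaged 19.4 ± 1.17 CPM in labelled knockout and 11.9 ± 1.54 CPM in wild-type with PDGF-BB (log2 0.67, SE 0.108, limma-trend adjusted p = 0.000382), and 21.1 ± 0.731 and 9.65 ± 1.19 CPM without it (1.06, adjusted p = 7.04e-06). Aldh1a3 averaged 43.6 ± 5.09 CPM in labelled knockout and 20.4 ± 3.00 CPM in wild-type with PDGF-BB (log2 1.06, SE 0.191, limma-trend adjusted p = 0.000882). Without PDGF-BB the means were 7.47 ± 0.754 and 4.97 ± 1.75 CPM (0.55, adjusted p = 0.0411). That last call was lost under 10 of the 22 alternative settings, with limma-trend adjusted p between 0.00321 and 0.166. It was lost with no filter (0.0866) and without replicate 2 of the treated wild-type libraries (0.0509). It was also lost without replicate 1, 2 or 3 of labelled knockout with PDGF-BB (0.0574, 0.0508 and 0.0517) and of labelled knockout untreated (0.0506, 0.101 and 0.127). Without replicate 1 of untreated wild-type the log2 difference was 0.28 (limma-trend adjusted p = 0.166). Aldh1a3 was picked for its PDGF-BB response in these same libraries, so its p-values are given as a description.

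Dhrs3 averaged 25.2 ± 1.23 CPM in labelled knockout and 45.6 ± 8.87 CPM in wild-type with PDGF-BB (SD, n = 3 each), a log2 difference of -0.81 (SE 0.107, limma-trend adjusted p = 6.39e-05). Without PDGF-BB it averaged 47.9 ± 0.634 and 107.1 ± 5.33 CPM (log2 -1.14, adjusted p = 2.95e-06). Rarg averaged 89.8 ± 1.5 CPM in labelled knockout and 137.7 ± 3.34 CPM in wild-type with PDGF-BB (log2 -0.61, SE 0.0636, adjusted p = 7.68e-06). Without PDGF-BB it averaged 106.6 ± 6.55 and 138.0 ± 6.86 CPM (log2 -0.37, adjusted p = 0.000553). Crabp2 averaged 4.50 ± 0.263 CPM in labelled knockout and 9.02 ± 3.02 CPM in wild-type with PDGF-BB (log2 -0.82, SE 0.188, limma-trend adjusted p = 0.00438), a call lost with a pseudocount of 0.1 (adjusted p = 0.0673, range over all settings 0.000352 to 0.0673). Without PDGF-BB it did not pass (log2 -0.02, limma-trend adjusted p = 0.955), but both labels were at a few reads there, too few to show a difference. The filter kept Crabp2 only through its PDGF-BB libraries, so its p-values are given as a description.

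Cyp26b1 differed by label in opposite directions in the 2 treatments. With PDGF-BB it averaged 209.9 ± 11.7 CPM in labelled knockout and 122.0 ± 11.4 CPM in wild-type (SD, n = 3 each), a log2 difference of 0.78 (SE 0.0739, limma-trend adjusted p = 3.35e-06). Without PDGF-BB it averaged 646.2 ± 24.3 CPM in labelled knockout and 821.2 ± 12.1 CPM in wild-type (log2 -0.35, SE 0.0739, limma-trend adjusted p = 0.00267). The difference without PDGF-BB kept its sign but not its call with TMM scaling (-0.18, adjusted p = 0.124), edgeR (-0.21, 0.0681) and DESeq2 (-0.20, 0.0574), and its adjusted p ranged from 4.67e-06 to 0.124 over all settings. Cyp26b1 was picked for its PDGF-BB response in these same libraries. The p-values of the 2 treatments are therefore a description, and the opposite directions were not tested. The response in labelled knockout minus that in wild-type was 1.13 on the log2 scale (SE 0.105), given with no p because the gene was picked for its response. For Aldh1a3 the same quantity was 0.51 (SE 0.271).

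**Figure D2:**
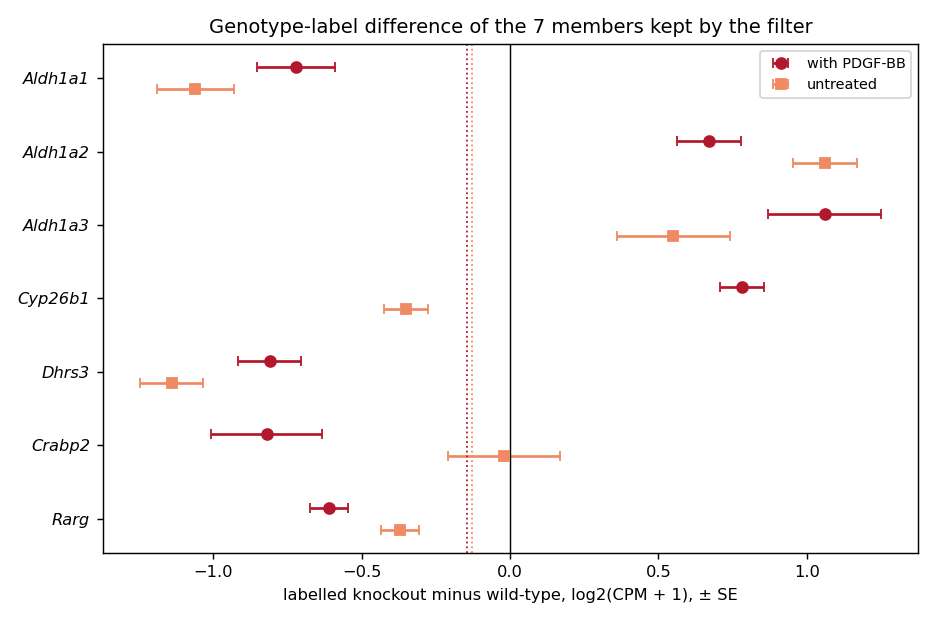
Log2(CPM + 1) differences of labelled knockout minus wild-type, with SE, for the 7 members kept by the filter, with PDGF-BB (circles) and untreated (squares), where the dotted lines mark the medians of all genes (-0.14 and -0.13). Cyp26b1 lies at 0.78 with PDGF-BB and at -0.35 untreated, while Aldh1a2 and Aldh1a3 lie above 0 and Aldh1a1, Dhrs3 and Rarg below 0 in both treatments.

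For 4 of the other measured members the difference between the responses was tested. None passed with limma-trend, edgeR or DESeq2, where 3.92% of all genes kept passed with limma-trend. At an unadjusted p under 0.05 there were 3 with limma-trend (Aldh1a2, Rarg and Dhrs3), where 19.2% of all genes kept were under it, and 2 with edgeR and DESeq2 (Aldh1a2 and Rarg), where 19.1% and 18.2% were. The log2 differences of response were 0.33 (SE 0.186) for Aldh1a1, -0.39 (SE 0.153) for Aldh1a2, -0.24 (SE 0.0899) for Rarg and 0.33 (SE 0.151) for Dhrs3. Single wild-type libraries with PDGF-BB moved these calls. Without replicate 1, Dhrs3 passed at 0.47 (limma-trend adjusted p = 0.00192, range over settings 0.00192 to 0.431) and Rarg at -0.24 (0.0469, range 0.0469 to 0.336). Crabp2, which passed the filter through its PDGF-BB libraries alone and was at a few reads untreated under both labels, was not tested, and its value of -0.80 repeats the difference between the labels with PDGF-BB (-0.82).

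Per kb of exon, the 3 ALDH1A transcripts together were at 61.4 ± 1.3 CPM per kb in labelled knockout cells with PDGF-BB and 78.6 ± 14.6 untreated, against 81.9 ± 10.5 in wild-type cells with PDGF-BB and 144 ± 4.09 untreated (SD, n = 3 each). Their make-up differed as well. Aldh1a3 was 15.3% ± 1.49 of the ALDH1A transcripts in labelled knockout with PDGF-BB and 2.09% ± 0.248 untreated, against 5.39% ± 0.269 in wild-type with PDGF-BB and 0.744% ± 0.252 untreated. Aldh1a2 was 13.9% ± 0.989 and 12.2% ± 2.76 in labelled knockout with and without PDGF-BB, against 6.40% ± 0.272 and 2.96% ± 0.378 in wild-type. Aldh1a1 was the largest part in every library, at 70.7% and 85.7% in the labelled knockout groups with and without PDGF-BB and 88.2% and 96.3% in the wild-type ones. These shares repeat the values above in another form and were not tested. With the exon lengths of the deposited table, a choice made after the data had been seen, Aldh1a3 was 11.3% and 1.44% in labelled knockout with and without PDGF-BB and 3.64% and 0.486% in wild-type.

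**Figure D3:**
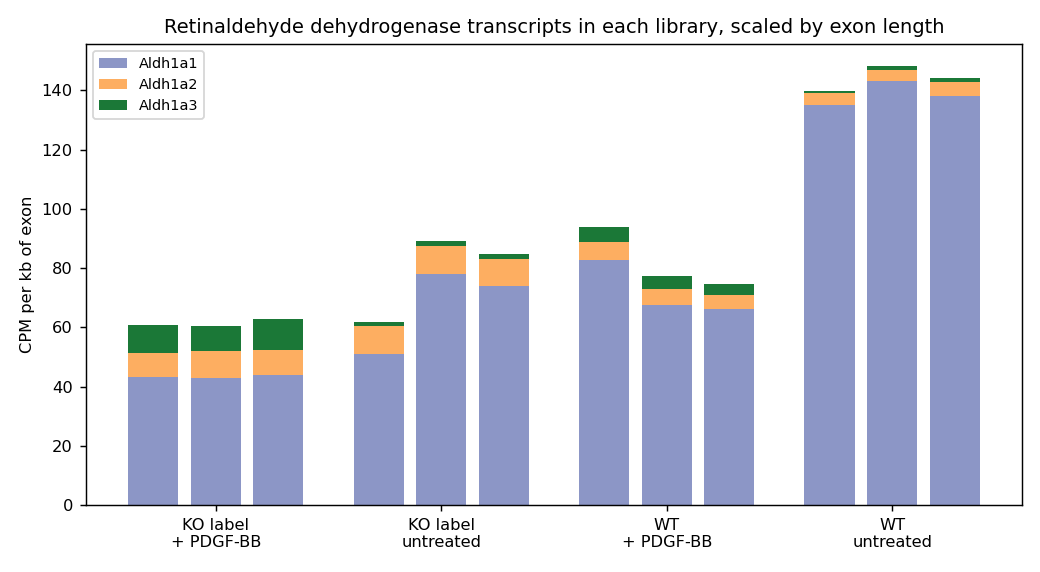
Levels of Aldh1a1, Aldh1a2 and Aldh1a3 per kb of exon in each of the 12 libraries, as stacked bars of CPM per kb. The sum was largest in untreated wild-type cells (144 CPM per kb in the mean) and the part of Aldh1a3 largest in labelled knockout cells with PDGF-BB (15.3%).

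Genes whose pattern over the 12 libraries was most like that of Cyp26b1 and Aldh1a3 were found by the root mean square difference of centred log2(CPM + 1) values, over 10713 genes. Nearest to Cyp26b1, whose own amplitude by this measure was 1.13, were Hs6st1 (0.149), Magi1 (0.206), Klf11 (0.213), Klhl24 (0.219) and Npr3 (0.254). Hs6st1 averaged 31.7 CPM in labelled knockout with PDGF-BB and 83.2 untreated, against 19.8 in wild-type with PDGF-BB and 129 untreated. Nearest to Aldh1a3, of amplitude 1.17, were Sgk1 (0.293), Noct (0.315), Cyp51 (0.346) and Lrp8 (0.359). Sgk1 averaged 187 CPM in labelled knockout with PDGF-BB and 43.6 untreated, against 122 in wild-type with PDGF-BB and 30.3 untreated.

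Outside the 9 members, 71 further genes of vitamin A handling, retinoid enzymes, receptors and known targets were in the table and 51 passed the filter. With PDGF-BB, 9 rose and 16 fell in labelled knockout cells and 11 rose and 21 fell in wild-type cells (limma-trend). These are 49.0% and 62.7% of the 51, where 42.4% and 59.4% of all genes kept passed (17.6% higher and 24.8% lower in labelled knockout, 25.0% and 34.4% in wild-type), so the share of calls was near that of all genes. The median log2 change was -0.19 and -0.17, against -0.07 and -0.08 over all genes. Without replicate 3 of labelled knockout with PDGF-BB, 10 fell in labelled knockout. With TMM scaling 10 rose and 13 fell in labelled knockout, and 13 rose and 14 fell in wild-type. Over all genes the share of calls that were higher was 41.5% and 42.1% on CPM and 54.2% and 51.8% with TMM scaling.

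Of the 13 other receptors, binding proteins and co-regulators measured, 2 rose and 8 fell in labelled knockout cells and 2 rose and 7 fell in wild-type cells, 76.9% and 69.2% of them, where 42.4% and 59.4% of all genes kept passed. In labelled knockout 2 of the 8 falls were small and depended on the setting. The co-regulator Nrip1, at -0.35, lost its call under 8 settings, TMM scaling and edgeR among them (adjusted p = 0.0829 and 0.0501), and the receptor Rxrb, at -0.23, under 11, among them TMM scaling (0.173), edgeR (0.0963) and DESeq2 (0.0962). Rara, the alpha receptor, averaged 61.5 ± 0.958 CPM with PDGF-BB and 45.3 ± 1.62 untreated in labelled knockout, and 74.0 ± 4.65 and 45.0 ± 0.282 CPM in wild-type (SD, n = 3 each). Its log2 changes were 0.43 and 0.70 (limma-trend adjusted p = 0.000134 and 9.57e-07). The co-activators Ncoa1, Ncoa2 and Ncoa3 fell, Ncoa1 by 0.73 and 0.89, Ncoa2 by 0.46 and 0.82 and Ncoa3 by 0.47 and 0.69 on the log2 scale in labelled knockout and in wild-type. The labelled knockout calls of Ncoa2 and Ncoa3 were lost without replicate 1 of untreated labelled knockout (adjusted p = 0.0611 and 0.0504) and without replicate 3 of labelled knockout with PDGF-BB (0.0566 and 0.0575). Those of Ncoa3 were also lost without replicate 3 of untreated labelled knockout (0.0625) and replicate 2 with PDGF-BB (0.0507). Fabp5, a fatty acid binding protein that also carries retinoic acid, fell by 0.45 and 0.71. Ncor1, a co-repressor, fell by 0.50 in wild-type, a call lost with TMM scaling (adjusted p = 0.0553), edgeR (0.0688), a fit of the compared groups only (0.0843) and without replicate 1 of untreated wild-type (0.0568). Rarres2, which encodes chemerin, fell by 0.55 in labelled knockout, and 5 settings ended that call, with no filter, with quantile normalization and without replicate 1 of untreated labelled knockout or replicates 1 or 3 of labelled knockout with PDGF-BB.

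Of the 16 enzymes that interconvert retinol and retinaldehyde, 3 rose and 2 fell in labelled knockout and 3 rose and 5 fell in wild-type, where 42.4% and 59.4% of all genes kept passed. Dhrs7, a short-chain dehydrogenase, fell by 0.90 in labelled knockout and 0.71 in wild-type. Adh1, an alcohol dehydrogenase that oxidises retinol, fell by 0.77 and 0.96. Akr1b8, an aldo-keto reductase, rose by 0.65 in wild-type and by 0.32 in labelled knockout, a call that 8 of its settings ended. Rdh12, a retinal reductase, fell by 0.58 in wild-type, a call lost with quantile normalization (adjusted p = 0.177) and when replicate 3 of treated wild-type was left out (0.0679). Of the 3 further oxidising enzymes measured, 2 fell under both labels. Aldh1a7 fell by 0.64 in labelled knockout and 0.92 in wild-type, and Aox1, an aldehyde oxidase, by 0.74 and 0.61. Cyp1b1, the remaining one, fell by 0.27 in wild-type, a call lost with TMM scaling (-0.18, adjusted p = 0.0697), and had -0.09 in labelled knockout (adjusted p = 0.316). Cyp26a1 and Cyp26c1, the other CYP26 enzymes, averaged at most 0.0443 CPM in any group. Among 4 genes of vitamin A uptake and storage, Scarb1, a lipoprotein and carotenoid receptor, rose by 0.69 in labelled knockout and 0.50 in wild-type, and Lpl, lipoprotein lipase, fell by 1.19 and 0.82.

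Of 17 known retinoic acid targets, 3 rose and 4 fell in labelled knockout and 5 rose and 6 fell in wild-type, 41.2% and 64.7% of them, near the 42.4% and 59.4% of all genes. Plat, tissue plasminogen activator, averaged 95.5 ± 2.28 CPM with PDGF-BB and 40.9 ± 1.09 untreated in labelled knockout, and 87.6 ± 1.26 and 42.2 ± 4.6 CPM in wild-type. Its log2 changes were 1.20 and 1.04 (limma-trend adjusted p = 9.95e-08 and 1.08e-07). Hoxb4, a homeobox factor, fell by 0.48 and 0.50. Zfp703, a zinc finger repressor, averaged 39.7 ± 0.559 and 30.6 ± 1.38 CPM with PDGF-BB and untreated in labelled knockout, and 62.9 ± 2.88 and 31.6 ± 1.26 CPM in wild-type. Its changes were 0.36 and 0.97, and the difference of the responses was -0.61 (SE 0.0952, limma-trend adjusted p = 0.00346). It was the 1 call of the 51 genes in that test, where 2.25% of all genes kept passed as above and 1.68% as below 0. When replicate 1 of treated wild-type was left out there were 2 calls above and 5 below 0, and without replicate 1 of untreated wild-type 2 below 0.

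**Figure D4:**
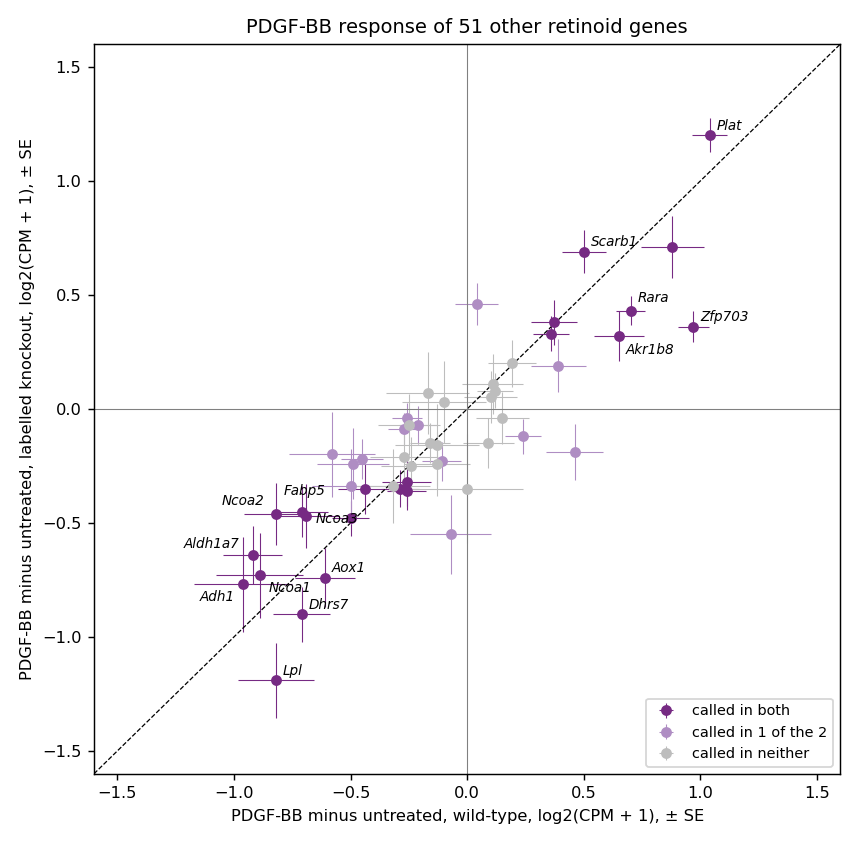
PDGF-BB response on the log2(CPM + 1) scale, with SE, of the 51 other retinoid genes kept by the filter, in wild-type cells (horizontal) and labelled knockout cells (vertical), where the dashed line marks equal responses and the colours mark genes called in both labels, in 1 or in neither. Plat lies at the upper right (1.20 in labelled knockout, 1.04 in wild-type) and Lpl at the lower left (-1.19 and -0.82), and Zfp703 lies below the line.

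Between the labels, 4 of the 51 were higher and 18 lower in labelled knockout with PDGF-BB, and 5 higher and 15 lower without it, 43.1% and 39.2% of the list. Of all genes kept 37.2% passed with PDGF-BB (10.6% higher and 26.6% lower) and 34.0% without it (9.15% and 24.8%), so these shares were near those of all genes. With TMM scaling the counts were 6 higher and 11 lower with PDGF-BB and 6 higher and 8 lower without it. The medians were -0.10 and -0.16, against -0.14 and -0.13 over all genes. Tbx1, Rarres1 and Fabp5 were among those higher in labelled knockout in both treatments. Tbx1, a T-box factor of heart and pharyngeal development, averaged 8.10 ± 0.857 CPM in labelled knockout and 0.958 ± 0.188 CPM in wild-type with PDGF-BB (log2 2.22, limma-trend adjusted p = 1.23e-07), and differed by 2.16 without it. Rarres1, a gene first found through its response to retinoids, differed by 0.61 and 0.66 and Fabp5 by 0.73 and 0.48 with and without PDGF-BB. Adh7, a retinol dehydrogenase, was higher by 0.73 without PDGF-BB with overlapping libraries, a call that 5 settings ended.

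Of the 17 retinoic acid targets, 2 passed as higher and 9 as lower in labelled knockout with PDGF-BB, and 2 as higher and 7 as lower without it, where 26.6% and 24.8% of all genes were lower. Hoxa5 averaged 19.4 ± 2.37 CPM in labelled knockout and 57.5 ± 10.3 CPM in wild-type with PDGF-BB (log2 -1.52, limma-trend adjusted p = 3.84e-07), and differed by -1.33 without it. Hoxb5 differed by -1.41 and -1.34, Hoxb4 by -0.53 and -0.56, and Meis2, a homeobox partner of HOX proteins, by -0.89 and -0.53 with and without PDGF-BB. Tgm2, a transglutaminase, averaged 79.9 ± 4.21 CPM in labelled knockout and 176.2 ± 16.1 CPM in wild-type with PDGF-BB (log2 -1.13, limma-trend adjusted p = 1.56e-06), and differed by -1.14 without it. Hoxa4 differed by -0.69 and Zfp703 by -0.65 with PDGF-BB. Outside the targets, Dhrs9, a retinol dehydrogenase, averaged 39.9 ± 1.6 CPM in labelled knockout and 101.1 ± 31.2 CPM in wild-type with PDGF-BB (log2 -1.27, limma-trend adjusted p = 0.00012), and differed by -1.51 without it. Lpl differed by -1.09 and -0.71, and Rdh10, the retinol dehydrogenase that feeds retinoic acid synthesis, by -0.44 and -0.41. Adh5, an alcohol dehydrogenase of broad expression, differed by -0.45 with PDGF-BB. The calls of Rxra, Meis1 and Rdh13 in both treatments, of Sox9, Rara, Dhrs7 and Rdh14 with PDGF-BB and of Sox9, Retsat, Aldh1a7 and Cyp1b1 without it lay between -0.21 and -0.40 and were lost with TMM scaling. Endothelial, macrophage, smooth muscle and Schwann cell markers moved with the same labels, and their part in these differences was not tested.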

How the data were processed

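RNA of 12 libraries was prepared with a stranded poly(A) kit, per the labels' protocols. Per the submitters' processing notes, HISAT2 and HTSeq were used with mm10; versions and the strand setting are not given in the sources used here. The authors deposited CPM, that is, reads scaled to the same library sum, in a table named for FPKM. In each library 100% of the values were whole reads within 0.001 read once multiplied by its total, and totals were 14953807 to 21698488 reads. The assembly is GRCm38.p6, per the file headers.

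Genes with at least 1 CPM in at least 3 libraries were kept, 14202 of 55487. Limma-trend (limma 3.58.1, R 4.3.3) was fitted to log2(CPM + 1) of all 12 libraries with 1 mean per group, with 2-sided tests. Benjamini-Hochberg adjusted p, taken over all 14202 genes, were called below 0.05. Fold changes on CPM + 1 understate the change of low genes. Fold values given without log2 are ratios of mean CPM. Levels per kb use the union of GENCODE exons. Calls were also made with edgeR 4.0.16 and DESeq2 1.42.0 on the recovered reads, with other pseudocounts, filters, scalings and groups, and without each library in turn. The procedure was tested on simulated data.

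The members and lists were chosen with earlier results of these data known. Other retinoid genes are named where they passed in a genotype contrast or the interaction, or in a PDGF-BB contrast with a log2 change of at least 0.5 in size. Likeness was measured for genes with a mean of at least 5 CPM. Crabp2 was left out of the interaction test after its values had been seen. Promoter sequences are RefSeq's. A few genes picked by these rules are left out of the text.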

Additional observations from a re-analysis of the deposited data

Results flagged for a closer look

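Cyp26b1 differed between the labels in opposite directions in the 2 treatments: the log2 difference, labelled knockout minus wild-type, was 0.78 with PDGF-BB and -0.35 untreated. The medians of all genes were -0.14 and -0.13. The untreated difference kept its sign but lost its call with TMM scaling (-0.18, limma-trend adjusted p = 0.124), edgeR (-0.21, adjusted p = 0.0681) and DESeq2 (-0.20, adjusted p = 0.0574). The difference between the 2 treatments was not tested, since the gene was picked for its PDGF-BB response. The p-values within each treatment come from the same libraries and are a description too.

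Zfp703 rose less with PDGF-BB in labelled knockout than in wild-type cells, with a difference of the responses of -0.61 on the log2 scale (SE 0.0952, limma-trend adjusted p = 0.00346). It passed in that test under all 21 alternatives run, with adjusted p up to 0.0145.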

How the results depend on the processing

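In both genotype contrasts Aldh1a1, Aldh1a2, Dhrs3 and Rarg kept their direction and call under all 22 alternatives run. The count of members higher in untreated labelled knockout moved by Aldh1a3, with 1 in place of 2 with no filter and with the replicate number as a block (replicate block), and 1 to 2 with a library left out. Same-numbered libraries did not deviate together (18 pairs, r -0.231 to 0.175, and 7 of 24 best matches shared the number), so no pairing by number was seen. With deviations from means of 3 libraries, this check cannot decide whether the number marks a shared animal or day. The block moved no other count of calls by over 1.5 times.

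Of the other retinoid genes, with PDGF-BB 11 were lower in labelled knockout with TMM scaling and with quantile normalization (18 on CPM) and 7 higher with DESeq2 (4). Without PDGF-BB the count lower was 8 with TMM scaling, with edgeR and with DESeq2 (15), and the count higher was 3 at a mean of at least 5 CPM (5). In the interaction, 3 were below 0 with DESeq2 (1). Leaving out a library, the genes that fell with PDGF-BB in labelled knockout ranged from 10 to 21. The interaction calls ranged from 0 to 1 above and 0 to 1 below 0 for members, and from 0 to 2 above and 1 to 5 below 0 for the others. The cause was not tested. Over single other retinoid genes, 3 of the values reversed, all when replicate 1 of treated wild-type was left out. They were Rai1 in its wild-type PDGF-BB response, at 0.21 (-0.28 to 0.21 over the libraries left out), Rai1 between the labels with PDGF-BB, at -0.17 (-0.17 to 0.32), and Akr1b3 between the labels with PDGF-BB, at 0.17 (-0.10 to 0.17). The cause was not tested. With 3 libraries a group at these depths, Rarb and Crabp1 gave no test. Crabp2 has no value at a mean of at least 5 CPM, and the interaction none in a fit of the compared groups only.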
